A study of Homo sapiens with 12 samples.

Results

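Transcript levels of 10 neuronal tubulin, microtubule-associated protein and growth cone genes were followed through 12 RNA sequencing libraries of human neuroblastoma cells, a tumour of the sympathetic nervous system. The genes were TUBB3, TUBB2A, TUBB2B, TUBA1A, TUBB6, DCX, MAP2, MAPT, MAP1B and GAP43. They were taken by symbol from a table of 58735 human genes, and all 10 were found and passed the filter on low values that left 15856 genes for testing. Libraries came from 4 groups of 3: SK-N-SH cells labelled as a TSPYL5 knockdown (shTSPYL5), SK-N-SH controls, a second line labelled as the same knockdown, and controls of the second line. TSPYL5 encodes a protein of the TSPY and NAP family. Both control groups have shNC in their titles and WT as genotype, and all 12 libraries have None as treatment. The second line has no single name in the labels: its titles read SK_N_BE2, while its source and cell line fields read SH-SY5Y, and the neutral name second line is used. The labels give no hairpin sequence, clone number or time after knockdown, and whether the 3 libraries of a group are separate cultures is unstated, so every p-value is set against a spread that may be technical.

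Microtubules are polymers of alpha and beta tubulin, each made from several genes (isotypes). Developing neurons are known for using TUBA1A, TUBB2A, TUBB2B and TUBB3, and TUBB6 is a beta tubulin of many non-neuronal tissues. Microtubule-associated proteins bind and stabilise the polymer: DCX (doublecortin) in migrating young neurons, MAP2 in cell bodies and dendrites, tau (the product of MAPT) in axons, and MAP1B in growing axons. GAP43 is a membrane protein of axonal growth cones. In the sympathetic lineage these genes accompany neurite outgrowth, and TUBB3, MAP2 and GAP43 are commonly used to mark neuronal differentiation of neuroblastoma cells.

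TUBB2A and TUBB2B are hard to tell apart by short reads, which their last 75 coding bases show (stop codon included). The same stretch of TUBB3 and TUBB6, which differ more, is given beside them. It encodes the acidic tail in which beta tubulins differ most. The lines below give this stretch 5′ to 3′ on the coding strand, from GENCODE 29 transcripts on GRCh38, with capitals at the positions where TUBB2A and TUBB2B differ:
TUBB2A (chr6:3153863-3153937, minus strand): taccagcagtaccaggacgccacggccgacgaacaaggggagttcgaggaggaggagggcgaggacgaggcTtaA
TUBB2B (chr6:3224751-3224825, minus strand): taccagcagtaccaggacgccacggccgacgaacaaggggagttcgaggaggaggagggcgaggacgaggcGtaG
TUBB3 (chr16:89935730-89935804, plus strand): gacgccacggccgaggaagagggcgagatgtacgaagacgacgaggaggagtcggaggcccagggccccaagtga
TUBB6 (chr18:12326056-12326130, plus strand): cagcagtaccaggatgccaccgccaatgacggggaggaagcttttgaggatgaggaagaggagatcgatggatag
TUBB2A and TUBB2B lie near each other on chromosome 6. Their coding sequences differed at 25 of 1338 bases (98.1% identity), and 65.7% of all 100-base windows of TUBB2A occur letter for letter in TUBB2B. TUBA1A was 97.2% identical to its neighbour TUBA1B, with 22.4% of windows shared. TUBB3 and TUBB6 were 86.1% to 87.7% identical to each other and to the TUBB2 pair, and TUBB6 shared 0% of 100-base windows with any of them. No source used here says how counting split reads between such copies, so the separate values of TUBB2A and TUBB2B, and of TUBA1A, are uncertain to that extent.

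Levels are the authors' FPKM values (fragments per kilobase of transcript, adjusted for depth), which can be compared between genes and were scaled between libraries by size factors. The values trace back to 15425460 to 19249018 reads per library. The libraries labelled SK-N-SH shTSPYL5 and the second line controls held 15425460 to 16459726 reads each, and the other 6 libraries held 18014544 to 19249018, so depth moved with the pattern described below; its part in the results was not tested. TSPYL5, the targeted gene, was at 17.7 ± 0.629 FPKM in the libraries labelled SK-N-SH shTSPYL5 and at 12.9 ± 0.649 FPKM in SK-N-SH controls (SD, n = 3 each; log2 0.43, adjusted p = 7.45e-06, limma), which goes against the label. Second line TSPYL5 was at 12.8 ± 0.474 FPKM with shTSPYL5 and at 24.7 ± 0.918 FPKM in controls, which goes with it. MYCN, a transcription factor gene amplified in SK-N-BE(2) cells but not in SK-N-SH or its subclone SH-SY5Y, was at 1028 FPKM in the libraries labelled SK-N-SH shTSPYL5 and at 0.0408 FPKM in SK-N-SH controls. MYCN had 0 reads in second line shTSPYL5 and 1040.4 FPKM in second line controls. Across genes, the libraries labelled SK-N-SH shTSPYL5 correlated at 0.986 to 0.987 with second line controls and at 0.705 to 0.724 with SK-N-SH controls. Second line shTSPYL5 libraries correlated at 0.960 to 0.975 with SK-N-SH controls and at 0.692 to 0.721 with controls of their own line. By MYCN and by these correlations the labelled knockdown libraries of both lines stood apart from the controls of their own line and close to those of the other. Whether labels were exchanged between groups was not tested, and a knockdown cannot be told apart from such an exchange in either line, so shTSPYL5 is used throughout as the label of a library. Each comparison within a line rests wholly on these libraries and has no value without them. The crosswise comparisons, each labelled knockdown group against the control group of the other line, are therefore given as well. Set crosswise, TSPYL5 averaged 17.7 FPKM in the libraries labelled SK-N-SH shTSPYL5 and 24.7 FPKM in second line controls (log2 -0.46, adjusted p = 0.000444, limma), and it was not called in second line shTSPYL5 over SK-N-SH control (12.8 FPKM in second line shTSPYL5 and 12.9 FPKM in SK-N-SH controls, log2 -0.01 ± 0.05 SE, adjusted p = 0.880, limma).

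**Figure D1:**
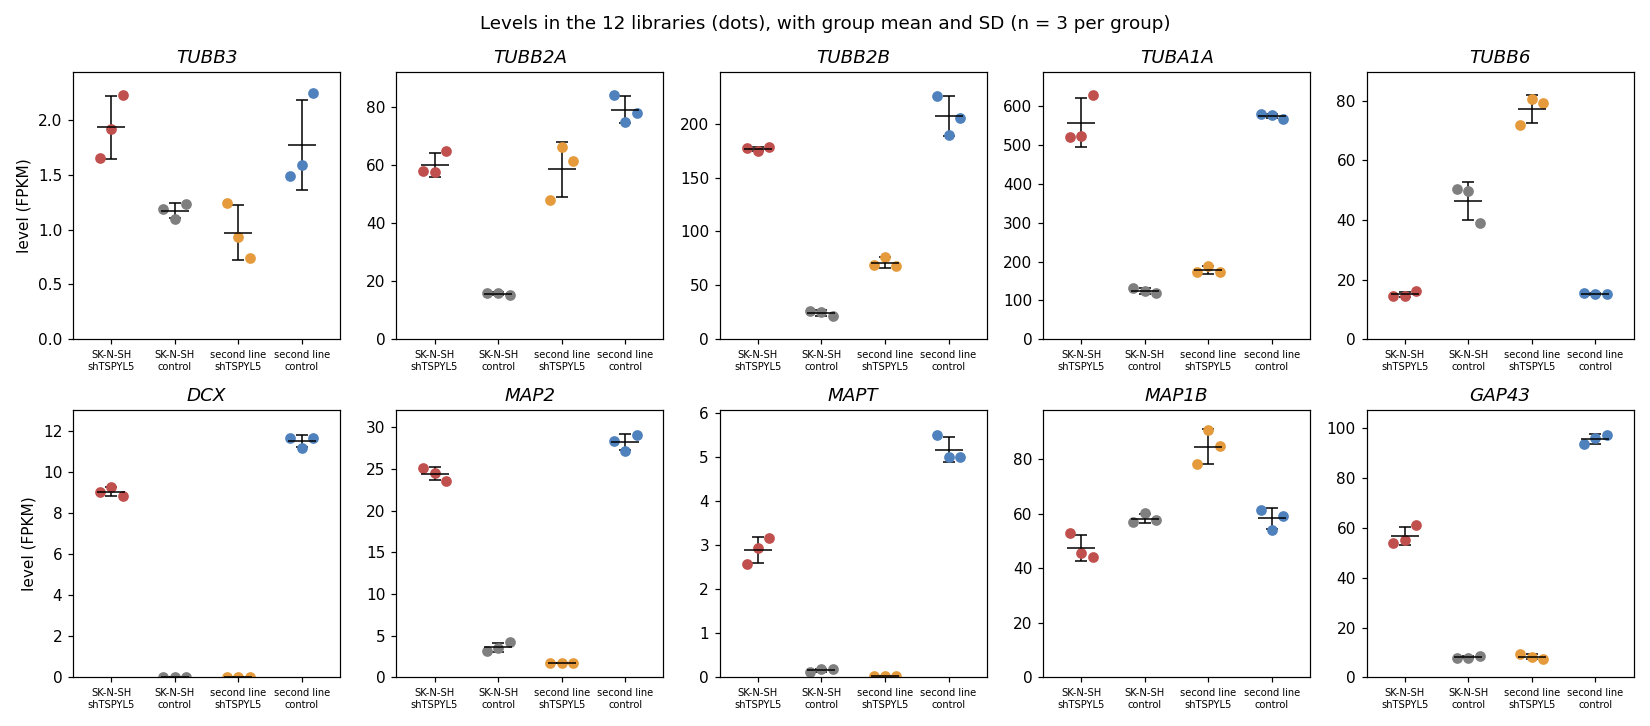
Each panel plots 1 gene, with the FPKM level on a linear axis from 0 and the 4 labelled groups side by side; dots are libraries, bars the mean and SD (n = 3). For 7 genes the libraries labelled SK-N-SH shTSPYL5 and the second line controls are the high pair, TUBB6 is reversed, TUBB2A is low only in SK-N-SH controls, and MAP1B stays between 44.1 and 90.7 FPKM everywhere.

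The neuronal beta tubulins TUBB2A and TUBB2B and the alpha tubulin TUBA1A were several-fold higher in the libraries labelled SK-N-SH shTSPYL5 than in SK-N-SH controls, and lower with shTSPYL5 in the second line. TUBB6 did the opposite in both lines. TUBB3, the usual neuronal beta tubulin marker, moved with the first 3 genes but by less, and its level was low. Folds below are ratios of mean FPKM. Log2 values are differences of log2(FPKM + 1) with their standard error, tested with limma across all 15856 genes and adjusted by Benjamini-Hochberg at a threshold of 0.05.

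TUBA1A (ENSG00000167552, chr12:49184796-49189324, minus strand; gene coordinates on GRCh38 here and below) had the highest mean FPKM of the 10 genes in every group. It had 520.3, 522 and 629.9 FPKM in the libraries labelled SK-N-SH shTSPYL5, against 133, 125 and 118 FPKM in SK-N-SH controls. All 3 labelled knockdown libraries stood above all 3 controls, 4.46-fold in the mean (log2 2.14 ± 0.08 SE, adjusted p = 2.89e-10, limma). Second line TUBA1A levels were 172, 189 and 174 FPKM with shTSPYL5, against 579, 577 and 568 FPKM in controls. Again the groups did not overlap, here with shTSPYL5 3.22-fold lower (log2 -1.68 ± 0.08 SE, adjusted p = 2.18e-09, limma). Of its exon bases, 14.3% are also covered by TUBA1C on the other strand, and no source used here states the strand setting of the counting.

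TUBB2B (chr6:3224261-3231730, minus strand), whose mutation disturbs neuronal migration, had 177, 175 and 178 FPKM in the libraries labelled SK-N-SH shTSPYL5, against 25.8, 25.5 and 21.2 FPKM in SK-N-SH controls. The labelled knockdown libraries were 7.31-fold higher without overlap (log2 2.82 ± 0.08 SE, adjusted p = 5.06e-11, limma). With shTSPYL5 the second line had 68.9, 76.6 and 67.9 FPKM of TUBB2B, against 226, 189 and 205 FPKM in its controls. That is 2.91-fold lower, also without overlap (log2 -1.53 ± 0.08 SE, adjusted p = 9.41e-09, limma).

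TUBB2A (chr6:3153669-3157526, minus strand), its near-identical neighbour, had 57.9, 57.5 and 65.0 FPKM in the libraries labelled SK-N-SH shTSPYL5, against 16.1, 15.9 and 15.3 FPKM in SK-N-SH controls. The difference was 3.82-fold with no overlap (log2 1.87 ± 0.10 SE, adjusted p = 8.58e-09, limma). The second line had 48.0, 66.2 and 61.5 FPKM of TUBB2A with shTSPYL5, against 84.3, 74.9 and 78.1 FPKM in controls. These groups came close but did not overlap, and shTSPYL5 was 1.35-fold lower (log2 -0.44 ± 0.10 SE, adjusted p = 0.00178, limma). In second line shTSPYL5 libraries TUBB2A and TUBB2B thus stood at 58.6 ± 9.43 and 71.1 ± 4.77 FPKM, while second line controls had 79.1 ± 4.76 and 207 ± 18.4 FPKM of them (SD, n = 3).

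TUBB6 (chr18:12307669-12344320, plus strand), the beta tubulin outside the neuronal set, had 14.5, 14.5 and 16.0 FPKM in the libraries labelled SK-N-SH shTSPYL5, against 50.3, 49.5 and 39.1 FPKM in SK-N-SH controls. It fell 3.08-fold without overlap (log2 -1.55 ± 0.09 SE, adjusted p = 1.26e-08, limma). The second line showed 71.8, 80.7 and 79.2 FPKM with shTSPYL5, against 15.6, 15.05 and 15.1 FPKM in controls. Here it rose 5.07-fold without overlap (log2 2.27 ± 0.09 SE, adjusted p = 4.30e-10, limma). AFG3L2 covers 20.3% of the TUBB6 exon bases on the opposite strand.

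TUBB3 (chr16:89921392-89938761, plus strand) was low in all 12 libraries, at 59 to 165 reads each. It had 1.65, 1.92 and 2.23 FPKM in the libraries labelled SK-N-SH shTSPYL5, against 1.19, 1.10 and 1.23 FPKM in SK-N-SH controls. The groups did not overlap and differed 1.65-fold (log2 0.43 ± 0.12 SE, adjusted p = 0.00605, limma). With shTSPYL5 the second line had 1.24, 0.935 and 0.743 FPKM, against 1.49, 1.59 and 2.25 FPKM in controls. There it was 1.83-fold lower, with a wider spread but no overlap (log2 -0.49 ± 0.12 SE, adjusted p = 0.00263, limma). The level needs a limit beside it: a readthrough gene from MC1R into TUBB3 (AC092143.1, same strand) holds 95.8% of the coding bases of TUBB3 transcript ENST00000315491, and it was listed with 0 reads in all 12 libraries. No source used here says how reads in shared exons were assigned, and its part in the low TUBB3 level was not tested.

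The microtubule-associated proteins split by gene. DCX, MAP2 and MAPT were strongly higher in the libraries labelled SK-N-SH shTSPYL5 and strongly lower with shTSPYL5 in the second line. MAP1B moved the other way by less than 1.5-fold.

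DCX (chrX:111293779-111412429, minus strand), the doublecortin gene of migrating neurons, had 9.03, 9.29 and 8.84 FPKM in the libraries labelled SK-N-SH shTSPYL5, against 0.0105, 0.0156 and 0.0367 FPKM in SK-N-SH controls. The control values rest on 12 reads in all, against 4687 reads in the labelled knockdown libraries. The ratio of means was 433-fold (log2 3.30 ± 0.05 SE, adjusted p = 7.32e-14, limma). DCX had 0 reads in all 3 second line shTSPYL5 libraries, against 11.7, 11.2 and 11.7 FPKM in second line controls. Set against a floor of 3 reads over the group, DCX was at least 2067-fold lower with shTSPYL5 (log2 -3.64 ± 0.05 SE, adjusted p = 3.13e-14, limma). Floors of this kind cover counting error only.

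MAP2 (chr2:209424058-209734118, plus strand), the dendritic microtubule-associated protein, had 25.1, 24.5 and 23.6 FPKM in the libraries labelled SK-N-SH shTSPYL5, against 3.13, 3.56 and 4.21 FPKM in SK-N-SH controls. The labelled knockdown libraries were 6.72-fold higher (log2 2.46 ± 0.07 SE, adjusted p = 4.28e-11, limma). The second line had 1.71, 1.71 and 1.79 FPKM of MAP2 with shTSPYL5, against 28.3, 27.2 and 29.1 FPKM in controls. shTSPYL5 was 16.2-fold lower here (log2 -3.42 ± 0.07 SE, adjusted p = 2.26e-12, limma), and the groups were apart in both lines.

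MAPT (chr17:45894382-46028334, plus strand), which encodes tau, had 2.58, 2.94 and 3.16 FPKM in the libraries labelled SK-N-SH shTSPYL5, against 0.129, 0.181 and 0.194 FPKM in SK-N-SH controls. The ratio was 17.2-fold without overlap (log2 1.73 ± 0.07 SE, adjusted p = 5.46e-10, limma). With shTSPYL5 the second line had 0.0260, 0.0397 and 0.0374 FPKM (27 reads in all), against 5.50, 4.997 and 4.9999 FPKM in controls. That is 150-fold lower (log2 -2.57 ± 0.07 SE, adjusted p = 1.67e-11, limma). Even where it was high, MAPT stayed below DCX and MAP2 in FPKM. That measure divides by all annotated exon bases, 14920 for MAPT, 10203 for DCX and 11559 for MAP2.

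MAP1B (chr5:72107234-72209570, plus strand), expressed early in growing axons, was abundant in all groups. It had 52.8, 45.5 and 44.1 FPKM in the libraries labelled SK-N-SH shTSPYL5, against 56.9, 60.2 and 57.6 FPKM in SK-N-SH controls, 1.23-fold lower without overlap (log2 -0.29 ± 0.08 SE, adjusted p = 0.00447, limma). The second line had 78.2, 90.7 and 84.97 FPKM with shTSPYL5, against 61.5, 54.1 and 59.3 FPKM in controls, 1.45-fold higher without overlap (log2 0.53 ± 0.08 SE, adjusted p = 5.59e-05, limma). Its direction was that of TUBB6, opposite to MAP2, DCX and MAPT.

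GAP43 (chr3:115623324-115721490, plus strand), the growth cone protein, had 54.1, 55.1 and 61.0 FPKM in the libraries labelled SK-N-SH shTSPYL5, against 7.92, 7.76 and 8.69 FPKM in SK-N-SH controls. The difference was 6.99-fold without overlap (log2 2.66 ± 0.07 SE, adjusted p = 3.14e-11, limma). Second line GAP43 levels were 9.36, 8.39 and 7.43 FPKM with shTSPYL5, against 93.7, 96.2 and 97.4 FPKM in controls. It was 11.4-fold lower with shTSPYL5 (log2 -3.37 ± 0.07 SE, adjusted p = 3.53e-12, limma). The low groups of the 2 lines, second line shTSPYL5 and SK-N-SH controls, overlapped in level.

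Counted together, 8 of the 10 genes rose and 2 fell in the libraries labelled SK-N-SH shTSPYL5, with a median log2 difference of 2.005, against 0.02 over all genes tested. In that comparison 40.7% of all genes tested were called higher and 39.0% lower, so calls in both directions were common in the whole table. In the second line 2 rose and 8 fell with shTSPYL5, with a median of -1.60, against -0.02 over all genes. There 39.9% of all genes were called higher and 40.2% lower. The 2 comparisons share no library. The difference between the lines in the step from control to labelled knockdown libraries (second line minus SK-N-SH) passed the test for all 10 genes, positive for TUBB6 and MAP1B and negative for the other 8, with a median of -4.07 against -0.03 over all genes. Of all genes, 41.8% were called positive and 43.1% negative in that test, so such calls were common in the whole table.

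Summed markers of cell state moved with the same split, though single markers did not all follow their sum. The summed FPKM of 10 noradrenergic neuroblast genes was 1253 to 1344 in the libraries labelled SK-N-SH shTSPYL5, against 84.1 to 97.1 in SK-N-SH controls, where TH (tyrosine hydroxylase) had 0 reads. Second line sums were 67.6 to 83.8 with shTSPYL5, with TH at 0 reads, against 1371 to 1421 in controls. The sum of 10 mesenchymal genes was 251 to 257 in the libraries labelled SK-N-SH shTSPYL5, against 2055 to 2355 in SK-N-SH controls. It was 1502 to 1729 in second line shTSPYL5 libraries, against 237 to 255 in their controls. COL1A1, COL3A1, VIM and FN1 made up most of the sum in the high groups. TWIST1, also on the mesenchymal list, ran against the sum, at 126 FPKM in the libraries labelled SK-N-SH shTSPYL5, against 73.0 FPKM in SK-N-SH controls, and at 46.9 FPKM in second line shTSPYL5, against 134 FPKM in second line controls. SNAI2 was at 2.73 ± 0.248 FPKM in the libraries labelled SK-N-SH shTSPYL5 and at 3.03 ± 0.640 FPKM in SK-N-SH controls (SD, n = 3 each). In the second line SNAI2 went with the sum, at 6.09 ± 0.523 FPKM with shTSPYL5 and 3.90 ± 0.486 FPKM in controls. Of 6 Schwann cell markers, 1 reached 1 FPKM in each group and the sums stayed at 1.47 to 7.48 FPKM. Sums of 6 epithelial markers were 21.7 to 31.0 FPKM in SK-N-SH controls and second line shTSPYL5 libraries and 1.36 to 2.08 FPKM in the other 2 groups. KRT18 made up most of the sum where it was high, with 17.3 FPKM in SK-N-SH controls and 22.3 FPKM in second line shTSPYL5. KRT8 and CLDN4 followed it. EPCAM ran against it, at 0.296 and 0.337 FPKM there, against 0.704 FPKM in the libraries labelled SK-N-SH shTSPYL5 and 0.814 FPKM in second line controls. KRT19 means also ran against it with a wide spread, and CDH1 was near 0 in all groups. Sums of 6 blood and endothelial markers were low but followed the split, at 1.21 to 1.39 FPKM in the libraries labelled SK-N-SH shTSPYL5, against 0.0754 to 0.114 FPKM in SK-N-SH controls, and at 0.0681 to 0.146 FPKM in second line shTSPYL5, against 0.780 to 0.910 FPKM in second line controls. PTPRC made up most of the sum where it was high, with 1.22 FPKM in the libraries labelled SK-N-SH shTSPYL5 and 0.711 FPKM in second line controls, while CD3E had 0 reads in all 4 groups. The part of these differences in the tubulin and microtubule-associated protein results was not tested, and in bulk RNA fewer cells of a type and less RNA per cell cannot be told apart.

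**Figure D2:**
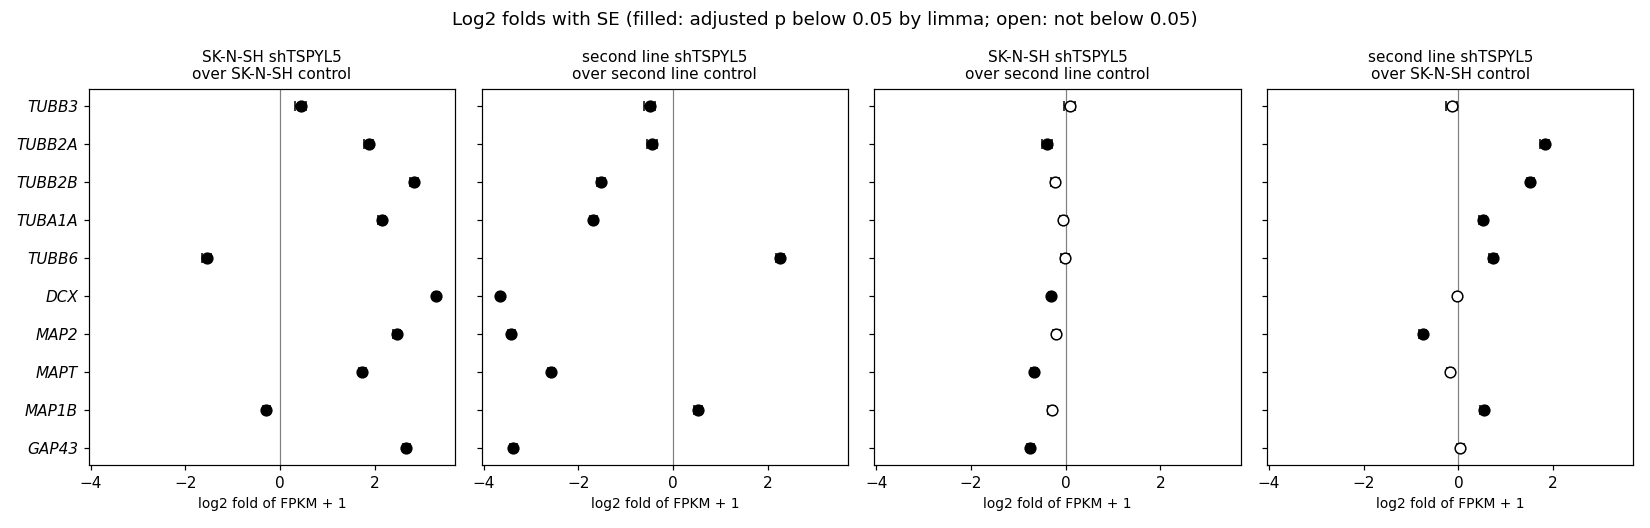
Log2 differences of FPKM + 1 (points) with their standard errors (lines) for the 10 genes, in the 2 comparisons within a line and the 2 crosswise ones; filled points passed an adjusted p of 0.05. Within a line the points lie on opposite sides in the 2 panels; in SK-N-SH shTSPYL5 over second line control all lie between -0.75 and 0.09.

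Set crosswise, the libraries labelled SK-N-SH shTSPYL5 differed little from second line controls. Of the 10 genes, 0 were called higher and 4 lower, with a median log2 difference of -0.26; over all genes tested 2.26% were called higher and 3.12% lower, with a median of 0. GAP43 was at 56.7 ± 3.75 FPKM in the libraries labelled SK-N-SH shTSPYL5 and at 95.7 ± 1.90 FPKM in second line controls (SD, n = 3 each), 1.69-fold lower (log2 -0.75 ± 0.07 SE, adjusted p = 0.000261, limma). MAPT was at 2.89 ± 0.292 FPKM in the libraries labelled SK-N-SH shTSPYL5 and at 5.16 ± 0.287 FPKM in second line controls, 1.79-fold lower (log2 -0.67 ± 0.07 SE, adjusted p = 0.000316, limma). DCX was 1.27-fold lower (log2 -0.32 ± 0.05 SE, adjusted p = 0.00239, limma), but not past the threshold with a pseudocount of 0.1 (adjusted p = 0.118). TUBB2A was 1.32-fold lower at the edge of the threshold (log2 -0.39 ± 0.10 SE, adjusted p = 0.0490, limma) and passed it in 6 of 20 alternative settings. The other 6 genes were not called: TUBB3 (log2 0.09 ± 0.12 SE), TUBB2B (-0.22 ± 0.08), TUBA1A (-0.05 ± 0.08), TUBB6 (-0.02 ± 0.09), MAP2 (-0.20 ± 0.07) and MAP1B (-0.29 ± 0.08). For MAP1B the adjusted p was 0.0534, and it fell under the threshold in 4 of 19 alternatives.

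Second line shTSPYL5 libraries and SK-N-SH controls stood further apart in the tubulins. Of the 10 genes, 5 were called higher and 1 lower in second line shTSPYL5, while 26.9% of all genes tested were called higher and 17.2% lower. Over all genes that is 4261 higher and 2735 lower, against 3083 higher and 3663 lower when scaled to library totals. The median log2 difference was 0.27 over the 10 genes and 0.02 over all genes. TUBB2A was 3.72-fold higher in second line shTSPYL5, at 58.6 ± 9.43 FPKM, against 15.7 ± 0.410 FPKM in SK-N-SH controls (SD, n = 3 each; log2 1.82 ± 0.10 SE, adjusted p = 6.69e-07, limma). TUBB2B was 2.94-fold higher, at 71.1 ± 4.77 FPKM, against 24.2 ± 2.58 FPKM in SK-N-SH controls (log2 1.52 ± 0.08 SE, adjusted p = 6.54e-07, limma). TUBB6 (log2 0.73 ± 0.09 SE), MAP1B (0.53 ± 0.08) and TUBA1A (0.51 ± 0.08) were higher by smaller steps, with adjusted p of 8.46e-05, 0.000296 and 0.000419. MAP2 was 2.10-fold lower, at 1.73 ± 0.0441 FPKM, against 3.64 ± 0.543 FPKM in SK-N-SH controls (log2 -0.75 ± 0.07 SE, adjusted p = 2.20e-05, limma).

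TUBB3, DCX, MAPT and GAP43 were not called in that comparison. GAP43 differed by 0.04 ± 0.07 SE on the log2 scale and DCX by -0.03 ± 0.05 SE, the smallest size among them. MAPT was at 0.0344 ± 0.00730 FPKM in second line shTSPYL5 and at 0.168 ± 0.0340 FPKM in SK-N-SH controls, a difference that a pseudocount of 1 compresses to log2 -0.17 ± 0.07 SE (adjusted p = 0.0580, limma). It passed the threshold in 5 of 19 alternatives, and with voom on the recovered reads its log2 difference was -2.27 (adjusted p = 0.000118). DCX, with 0 reads in second line shTSPYL5 and 12 in SK-N-SH controls, passed under voom alone (log2 -2.96, adjusted p = 0.00274) among 19 alternatives.

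In the order of group means, the 4 groups fell in the same sequence for DCX, MAP2 and MAPT: second line controls, the libraries labelled SK-N-SH shTSPYL5, SK-N-SH controls, second line shTSPYL5. For these 3 genes no neighbouring groups overlapped. TUBB2A, TUBB2B, TUBA1A and GAP43 shared the first 2 places, but SK-N-SH controls came last. Among those 4, the shTSPYL5 groups of both lines overlapped for TUBB2A, the top pair for TUBA1A and the bottom pair for GAP43, while TUBB2B had no overlap. TUBB6 was highest in second line shTSPYL5, then SK-N-SH controls, and its other 2 groups overlapped. MAP1B was also highest in second line shTSPYL5, and its 2 control groups overlapped. The ratio of the highest to the lowest group mean ran from 1.78 for MAP1B and 1.99 for TUBB3 through 5.03 for TUBB2A and 8.55 for TUBB2B to 16.2 for MAP2 and 150 for MAPT. DCX is left out of this range because its lowest group had 0 reads. Set against the floor of 3 reads, its highest group was at least 2067-fold above its lowest.

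Within the pool of tubulin transcripts the make-up shifted as well as the level. Summed over 9 beta tubulin genes, the level was 1106 ± 89.8 FPKM in the libraries labelled SK-N-SH shTSPYL5 and 577 ± 69.9 FPKM in SK-N-SH controls (SD, n = 3 each). In the second line the beta sum was 1049.5 ± 14.9 FPKM with shTSPYL5 and 1115 ± 8.53 FPKM in controls, while the sum of 10 alpha tubulin genes was 376 ± 23.4 FPKM with shTSPYL5 and 859.9 ± 20.1 FPKM in controls. Both sums were lower in all 3 second line shTSPYL5 libraries than in any second line control, the beta sum at 1038 to 1066 FPKM, against 1106 to 1123 FPKM in controls, and the alpha sum at 351 to 398 FPKM, against 847 to 883 FPKM in controls. The alpha sum was 861 ± 96.3 FPKM in the libraries labelled SK-N-SH shTSPYL5 and 269 ± 19.97 FPKM in SK-N-SH controls.

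TUBB2B made up 16.0% ± 1.17 of beta tubulin transcript in the libraries labelled SK-N-SH shTSPYL5, against 4.20% ± 0.214 in SK-N-SH controls (SD, n = 3 each). Its share was 6.78% ± 0.356 in second line shTSPYL5, against 18.5% ± 1.51 in second line controls. TUBB6 held 1.36% ± 0.0311 in the libraries labelled SK-N-SH shTSPYL5, against 8.01% ± 0.493 in SK-N-SH controls. With shTSPYL5 the second line had a TUBB6 share of 7.36% ± 0.418, against 1.37% ± 0.0157 in its controls. The general isotypes TUBB and TUBB4B held the bulk in every group. TUBB4B took 11.7% ± 0.0958 in the libraries labelled SK-N-SH shTSPYL5, against 30.7% ± 0.758 in SK-N-SH controls, and 35.8% ± 0.600 in second line shTSPYL5, against 11.3% ± 0.111 in second line controls. TUBB3 as counted was at most 0.243% of the beta pool in any library. The readthrough gene AC092143.1 shares 95.8% of the TUBB3 coding bases, and how reads there were assigned is not stated. The TUBB3 share may therefore be too low, which was not tested. TUBA1A made up 64.8% ± 0.848 of alpha tubulin transcript in the libraries labelled SK-N-SH shTSPYL5, against 46.5% ± 0.729 in SK-N-SH controls. Its share was 47.6% ± 3.81 in second line shTSPYL5, against 66.8% ± 1.20 in second line controls, and TUBA1B held most of the rest. Shares are given as descriptions. Reads split between near-identical copies, and the exon length by which each gene is divided, could move them.

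**Figure D3:**
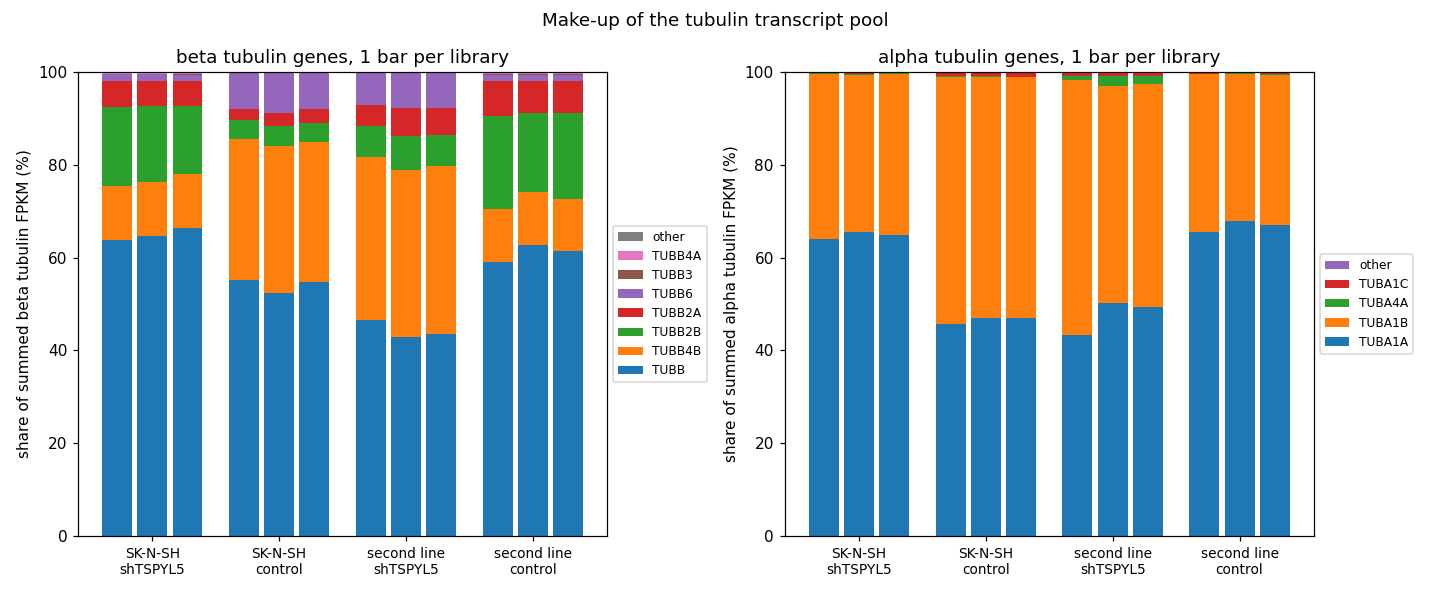
Share of each gene in the summed FPKM of beta tubulins (left) and alpha tubulins (right), in percent, with 1 bar for each of the 12 libraries grouped by label. TUBB2B is wide and TUBB6 and TUBB4B narrow in the libraries labelled SK-N-SH shTSPYL5 and in second line controls, and the reverse holds in the other 2 groups.

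Other tubulin genes moved in both directions. Where a parenthesis from here on holds a pair of log2 differences or p-values, the first is the SK-N-SH comparison and the second that of the second line. Every list count from here on is to be read beside the calls over all genes tested. These were 40.7% higher and 39.0% lower in the SK-N-SH comparison, and 39.9% higher and 40.2% lower in that of the second line. In the libraries labelled SK-N-SH shTSPYL5, 4 of 5 tested alpha tubulins rose and 0 fell (median log2 0.59), as did 5 of 7 beta tubulins, with 2 lower (median 1.20), counting the members. TUBB4A, a beta tubulin of brain, was at 4.12 ± 0.509 FPKM in the libraries labelled SK-N-SH shTSPYL5 and at 0.205 ± 0.0315 FPKM in SK-N-SH controls (log2 2.08, adjusted p = 2.35e-09, limma). TUBB4A was also lower with shTSPYL5 in the second line (log2 -1.85, adjusted p = 6.07e-09). TUBB4B was 1.37-fold lower in libraries labelled SK-N-SH shTSPYL5 and 2.98-fold higher with shTSPYL5 in the second line (log2 -0.45 and 1.57, adjusted p = 0.000426 and 7.49e-09). In the second line 2 alpha tubulins rose and 3 fell with shTSPYL5 (median -0.58), and 2 beta tubulins rose and 5 fell (median -0.49). TUBA4A, an alpha tubulin of muscle and brain, was higher both in the libraries labelled SK-N-SH shTSPYL5 and with shTSPYL5 in the second line (log2 0.59 and 1.57, adjusted p = 0.0356 and 5.82e-05). Of 4 gamma, delta and epsilon tubulins, 3 rose and 1 fell in the libraries labelled SK-N-SH shTSPYL5 (median 1.006), and 1 rose and 3 fell with shTSPYL5 in the second line (median -0.77). The gene that went against the other 3 was TUBG2, a gamma tubulin, in both lines (log2 -1.35 and 0.76, adjusted p = 1.74e-07 and 2.97e-05), while TUBG1 went the other way (0.97 and -0.39).

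Proteins that bind along the microtubule lattice moved in both directions. Of 26 tested, members included, 17 rose and 7 fell in the libraries labelled SK-N-SH shTSPYL5 (median log2 0.42), and 8 rose and 16 fell with shTSPYL5 in the second line (median -0.51). EML5, of the echinoderm microtubule-associated protein family, was at 14.7 ± 1.47 FPKM in the libraries labelled SK-N-SH shTSPYL5 and at 0.0356 ± 0.0172 FPKM in SK-N-SH controls (log2 3.92, adjusted p = 2.69e-13, limma). EML5 had 0 reads in second line shTSPYL5, against 14.7 ± 0.413 FPKM in second line controls, at least 2848-fold lower (log2 -3.97, adjusted p = 2.19e-13, limma). MTUS1 was at 23.4 FPKM in the libraries labelled SK-N-SH shTSPYL5 and at 0.422 FPKM in SK-N-SH controls, and it too was lower with shTSPYL5 in the second line (log2 4.11 and -3.70, adjusted p = 2.83e-13 and 6.40e-13). MAP4, the widely expressed relative of MAP2 and tau, ran the other way. It was at 11.3 ± 0.372 FPKM in the libraries labelled SK-N-SH shTSPYL5 and at 26.1 ± 0.556 FPKM in SK-N-SH controls (log2 -1.14, adjusted p = 5.83e-09, limma). Second line levels of MAP4 were 32.2 ± 2.98 FPKM with shTSPYL5 and 11.0 ± 0.312 FPKM in controls (log2 1.46, adjusted p = 6.23e-10, limma). MAP1A, the adult relative of MAP1B, went with MAP1B and MAP4 (log2 -0.99 and 1.06, adjusted p = 4.22e-06 and 2.16e-06).

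Collapsin response mediators and genes linked to lissencephaly, a disorder of neuronal migration, included shifts as wide as that of DCX. Of 16 tested, 11 rose and 3 fell in the libraries labelled SK-N-SH shTSPYL5 (median log2 0.72), and 3 rose and 13 fell with shTSPYL5 in the second line (median -0.81). DPYSL5, a collapsin response mediator, was at 35.8 ± 3.27 FPKM in the libraries labelled SK-N-SH shTSPYL5 and at 0.105 ± 0.0294 FPKM in SK-N-SH controls (log2 5.05, adjusted p = 3.20e-14, limma). It had 2 reads in all in second line shTSPYL5, against 50.9 ± 1.79 FPKM in second line controls (log2 -5.69, adjusted p = 1.05e-14, limma). CRMP1, of the same family, was higher in the libraries labelled SK-N-SH shTSPYL5 and lower with shTSPYL5 in the second line (log2 4.42 and -4.72), as was KIF5C, a neuronal kinesin heavy chain (log2 4.50 and -4.71). The 3 that fell in the libraries labelled SK-N-SH shTSPYL5 were NDEL1, TUBGCP2 and PAFAH1B1, which act with dynein or in the gamma tubulin ring complex, and the same 3 rose with shTSPYL5 in the second line. NDEL1 differed by near equal amounts in opposite directions (log2 -0.93 and 0.94, adjusted p = 1.02e-06 and 8.99e-07), and the steps of PAFAH1B1 were small (log2 -0.19 and 0.13, adjusted p = 0.00326 and 0.0279).

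Motors of transport along microtubules included large shifts both ways. Of 33 tested kinesin and dynein genes, 16 rose and 13 fell in the libraries labelled SK-N-SH shTSPYL5 (median log2 0.15), and 12 rose and 16 fell with shTSPYL5 in the second line (median -0.10). These counts are not far from the shares over all genes tested, 40.7% higher and 39.0% lower in SK-N-SH and 39.9% and 40.2% in the second line. KIF21A, a kinesin of axons and dendrites, was at 65.7 ± 2.16 FPKM in the libraries labelled SK-N-SH shTSPYL5 and at 0.390 ± 0.0536 FPKM in SK-N-SH controls (log2 5.59, adjusted p = 5.93e-15, limma). KIF21A in the second line was at 0.143 ± 0.0544 FPKM with shTSPYL5 and at 62.0 ± 2.09 FPKM in controls (log2 -5.78, adjusted p = 3.20e-15, limma). KIF1A, the synaptic vesicle kinesin, was at 22.5 ± 0.650 FPKM in the libraries labelled SK-N-SH shTSPYL5 and at 0.0468 ± 0.0101 FPKM in SK-N-SH controls, and it had 1 read in second line shTSPYL5, against 29.2 ± 1.18 FPKM in second line controls (log2 4.49 and -4.91, adjusted p = 7.43e-15 and 3.20e-15). KIF1C, its broadly expressed relative, went the other way (log2 -2.51 and 3.34, adjusted p = 7.86e-11 and 6.09e-12).

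Proteins of microtubule ends and severing enzymes were also called in both directions. Of 32 tested, 16 rose and 11 fell in the libraries labelled SK-N-SH shTSPYL5 (median log2 0.24), and 12 rose and 15 fell with shTSPYL5 in the second line (median -0.12). Here too the counts are not far from the shares over all genes tested, 40.7% and 39.0% in SK-N-SH and 39.9% and 40.2% in the second line. NAV3, a plus-end binding neuron navigator, was at 0.0204 ± 0.00937 FPKM in the libraries labelled SK-N-SH shTSPYL5 and at 3.55 ± 0.135 FPKM in SK-N-SH controls (log2 -2.16, adjusted p = 9.50e-10, limma). NAV3 in the second line was at 5.32 ± 0.940 FPKM with shTSPYL5 and at 0.0223 ± 0.00885 FPKM in controls (log2 2.62, adjusted p = 1.62e-10, limma). APC2, a neuronal relative of the APC tumour suppressor, rose in libraries labelled SK-N-SH shTSPYL5 (log2 1.30, adjusted p = 1.73e-09), and the microtubule-severing enzyme gene FIGN fell with shTSPYL5 in the second line (log2 -1.66, adjusted p = 3.02e-08).

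Enzymes that modify tubulin, and the chaperones that fold it, were covered by 2 lists. Of 18 modifying enzymes, 11 rose and 7 fell in the libraries labelled SK-N-SH shTSPYL5 (median log2 0.46), and 6 rose and 10 fell with shTSPYL5 in the second line (median -0.36). AGTPBP1, which trims glutamates from tubulin tails, was at 13.2 ± 0.528 FPKM in the libraries labelled SK-N-SH shTSPYL5 and at 3.04 ± 0.292 FPKM in SK-N-SH controls (log2 1.82, adjusted p = 1.03e-10, limma), and it was lower with shTSPYL5 in the second line (log2 -1.86, adjusted p = 7.72e-11, limma). VASH2, a tubulin detyrosinase, moved likewise (log2 1.78 and -1.91, adjusted p = 2.71e-10 and 1.36e-10). Of 21 folding genes, 14 rose and 4 fell in the libraries labelled SK-N-SH shTSPYL5 (median 0.40), and 7 rose and 11 fell with shTSPYL5 in the second line (median -0.21). Subunits of the CCT chaperonin led the rises, with CCT4 2.08-fold and TCP1 2.07-fold higher in the libraries labelled SK-N-SH shTSPYL5, while the prefoldin gene PFDN2 was 1.27-fold lower there and 1.63-fold higher with shTSPYL5 in the second line.

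Kinases and phosphatases that act on tau and other microtubule-associated proteins numbered 25 tested. Of these, 14 rose and 7 fell in the libraries labelled SK-N-SH shTSPYL5 (median log2 0.44), and 9 rose and 16 fell with shTSPYL5 in the second line (median -0.33). TTBK1, a neuronal tau kinase, was at 7.92 ± 0.196 FPKM in the libraries labelled SK-N-SH shTSPYL5 and at 0.0925 ± 0.0824 FPKM in SK-N-SH controls (log2 3.03, adjusted p = 1.93e-12, limma), and at 0.133 ± 0.0341 FPKM in second line shTSPYL5 and 8.74 ± 0.307 FPKM in second line controls (log2 -3.10, adjusted p = 1.48e-12, limma). CDK5 and its neuronal activator CDK5R2 moved in opposite directions. CDK5 was lower in libraries labelled SK-N-SH shTSPYL5 and higher with shTSPYL5 in the second line (log2 -0.94 and 1.503, adjusted p = 3.63e-05 and 5.57e-07), and CDK5R2 was higher in the libraries labelled SK-N-SH shTSPYL5 and lower with shTSPYL5 in the second line (log2 2.59 and -3.20, adjusted p = 1.86e-10 and 2.82e-11).

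Growth cone proteins beside GAP43 also split. Of 19 tested, GAP43 included, 13 rose and 5 fell in the libraries labelled SK-N-SH shTSPYL5 (median log2 0.89), and 5 rose and 13 fell with shTSPYL5 in the second line (median -0.90). The adhesion molecule gene L1CAM was at 21.9 ± 0.758 FPKM in the libraries labelled SK-N-SH shTSPYL5 and at 0.161 ± 0.0132 FPKM in SK-N-SH controls (log2 4.30, adjusted p = 6.68e-14, limma). In the second line L1CAM was at 0.176 ± 0.0853 FPKM with shTSPYL5 and at 25.7 ± 1.03 FPKM in controls (log2 -4.50, adjusted p = 4.19e-14, limma). GNAO1, a G protein subunit abundant in growth cones, had 0 reads in second line shTSPYL5, against 14.4 ± 0.513 FPKM in second line controls, at least 3474-fold lower. The actin-binding proteins CAP1, CAP2 and DBNL fell in the libraries labelled SK-N-SH shTSPYL5 (log2 -1.37, -2.02 and -1.45) and rose with shTSPYL5 in the second line (1.52, 2.74 and 1.51). The noradrenergic and mesenchymal marker sums given above differed between the same groups as these lists, and their part in the lists was not tested.

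**Figure D4:**
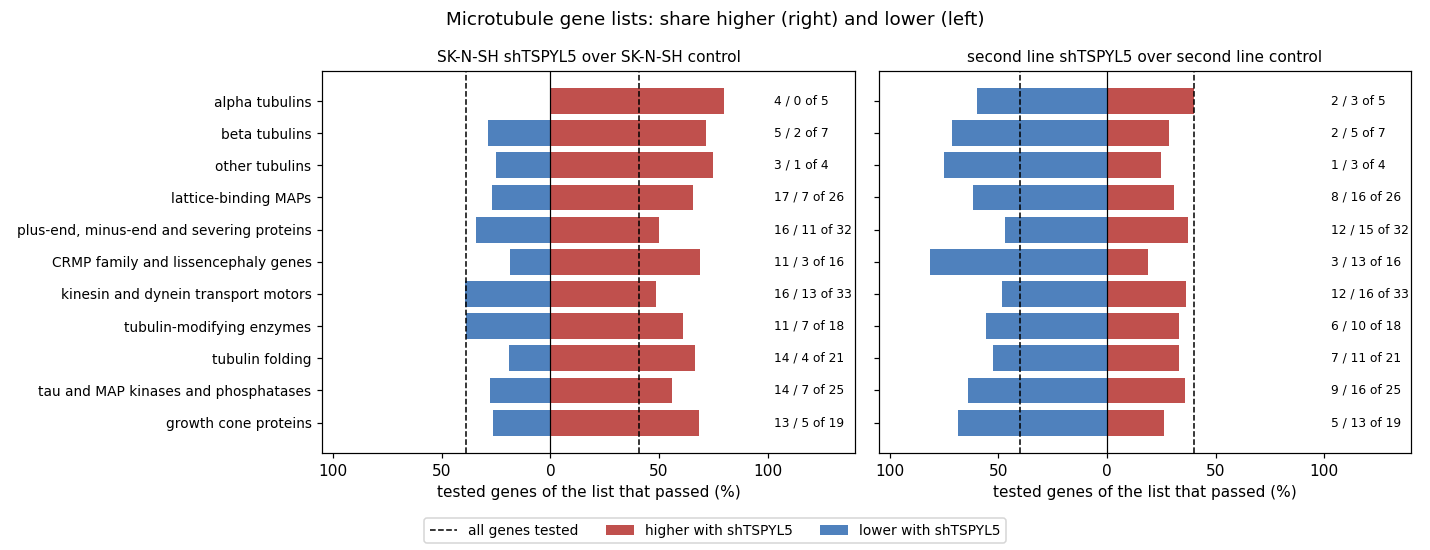
For 11 lists of microtubule and growth cone genes, the share of tested genes higher (right) or lower (left) with shTSPYL5, in percent, within each line; text gives higher / lower of tested, and dashed lines the share over all genes (40.7% and 39.0% on the left panel, 39.9% and 40.2% on the right). Shares higher exceed the dashed line for all 11 lists in SK-N-SH, and shares lower exceed it for all 11 in the second line, for some lists by little. Lists were chosen with earlier results of these data known, and the alpha tubulin, beta tubulin, lattice-binding and growth cone lists hold members. The shares are therefore descriptions.

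Promoter windows of 250 bases before to 50 bases after a transcription start were available from RefSeq (GRCh38.p14) for 9 of the 10 genes, in 16 windows; MAPT was not matched. They are shown for the TUBB2 pair, whose coding sequences are nearly the same but whose levels shifted by unequal amounts in the second line, and for TUBB6 and DCX, which moved in opposite directions. Capitals mark searched letters on either strand: TATAAA (the TATA box), CCAAT (the CCAAT box, read ATTGG on the other strand), GGAATG (the core of the TEAD motif, read CATTCC on the other strand), TGANTCA (the AP-1 motif) and CACGTG (the E-box of MYC proteins). Sequences run 5′ to 3′ on the gene's strand:
TUBB2A (chr6:3157495-3157794, minus strand): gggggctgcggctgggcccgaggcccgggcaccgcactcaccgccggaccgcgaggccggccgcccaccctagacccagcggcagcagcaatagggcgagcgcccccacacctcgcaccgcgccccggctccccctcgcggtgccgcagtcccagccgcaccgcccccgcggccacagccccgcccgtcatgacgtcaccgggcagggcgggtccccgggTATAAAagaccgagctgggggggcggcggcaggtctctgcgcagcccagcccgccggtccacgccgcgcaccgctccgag
TUBB2B (chr6:3227604-3227903, minus strand): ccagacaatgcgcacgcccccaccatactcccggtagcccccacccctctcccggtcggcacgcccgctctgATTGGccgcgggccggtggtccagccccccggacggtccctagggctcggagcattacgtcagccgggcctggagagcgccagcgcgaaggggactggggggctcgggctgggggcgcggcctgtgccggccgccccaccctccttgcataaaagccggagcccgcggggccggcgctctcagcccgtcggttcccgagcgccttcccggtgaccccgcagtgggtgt
TUBB6, upstream start (chr18:12307419-12307718, plus strand): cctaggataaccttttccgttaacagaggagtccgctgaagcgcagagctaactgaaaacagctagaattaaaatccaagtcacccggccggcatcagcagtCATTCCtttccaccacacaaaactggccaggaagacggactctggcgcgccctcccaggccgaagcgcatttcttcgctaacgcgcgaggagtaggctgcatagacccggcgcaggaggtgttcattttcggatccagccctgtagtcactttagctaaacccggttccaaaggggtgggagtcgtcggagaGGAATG
DCX, upstream start (chrX:111412143-111412442, minus strand): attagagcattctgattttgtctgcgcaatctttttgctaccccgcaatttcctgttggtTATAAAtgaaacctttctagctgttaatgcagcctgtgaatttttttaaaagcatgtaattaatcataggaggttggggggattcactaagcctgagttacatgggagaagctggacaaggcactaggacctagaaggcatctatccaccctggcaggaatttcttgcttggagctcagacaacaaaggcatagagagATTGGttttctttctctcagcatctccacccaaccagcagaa

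The TUBB2A and TUBB2B windows aligned with 47.4% identity, against 98.1% in the coding sequence. TUBB2A held TATAAA beginning 30 bases before the start. TUBB2B lacked it and held CCAAT beginning 178 bases before the start. Their GC content was 79.0% in TUBB2A and 74.7% in TUBB2B, against 43.0% in the DCX window and a median of 58.7% over 35116 promoter windows. TUBB6 held GGAATG 2 times in its upstream window, and MAP1B held it in 1 window; 14.0% of all windows hold it. TATAAA was found in windows of TUBB2A, DCX and MAP1B, against 11.5% of all windows. CCAAT was found in 8 of 16 windows, of 7 of the 9 genes, against 34.6% of all windows. Among them are overlapping DCX windows that hold the same site. TGANTCA was in 1 TUBB3 window (7.71% of all windows) and CACGTG in 0 of the 16 (7.26% of all windows). GGGCGG, the GC box, was in 6 of 16 windows of 5 genes, against 45.0% of all windows, and it overlaps none of the capitals shown. These matches are descriptions of letters in a window, and genes with several windows had more chances of a match.

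The genes whose levels were most like those of DCX over the 12 libraries, by Pearson correlation of log2(FPKM + 1) among 12200 protein-coding genes, were TH, KIF1A and RELN (r = 0.9998, 0.9998 and 0.9997), where RELN encodes the migration signal reelin. For TUBB6 they were TCIM, IRS1 and WDR1 (r = 0.999, 0.998 and 0.998), and WDR1, an actin filament disassembly factor, had 10.5 FPKM in the libraries labelled SK-N-SH shTSPYL5 and 42.6 FPKM in SK-N-SH controls, with 73.3 FPKM in second line shTSPYL5 and 11.5 FPKM in second line controls. For TUBB3 they were AC092835.1, VARS2 and TUBA3D (r = 0.969, 0.949 and 0.948); TUBA3D, an alpha tubulin, had 1.47 FPKM in the libraries labelled SK-N-SH shTSPYL5 and 0.657 FPKM in SK-N-SH controls, with 0.533 FPKM in second line shTSPYL5 and 1.32 FPKM in second line controls. Correlations of 0.95 or more were reached by 2635 genes for DCX, 2267 for TUBB6 and 1 for TUBB3. The libraries fall into 2 well separated sets, so these values mainly rank genes that share that split, and they are given as descriptions.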

How the data were processed

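RNA from 12 libraries of 3 replicates in 4 labelled groups was sequenced after preparation with a NEBNext Ultra kit, per the labels' protocols. HISAT2 2.0.5 and featureCounts 1.5.0-p3 are named in the submitters' processing notes, together with the mouse build mm10; the deposited gene identifiers are human, and all 58735 starts and ends equal GENCODE 29 on GRCh38, which is used here. The authors deposited FPKM per gene and library. Multiplied by gene length, 100% of FPKM values were whole multiples of 1 step per library (tolerance 0.05 reads), which gave the read totals; the authors' scaling matched median-of-ratios size factors (ratio 1) and not library totals (ratio 0.914 to 1.07).

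Values were analysed as log2(FPKM + 1), which understates changes of low genes, for 15856 genes with a mean of at least 0.5 FPKM. limma 3.58.1 (R 4.3.3) was fitted with 4 group means over all 12 libraries with an intensity trend, two-sided p-values with Benjamini-Hochberg adjustment per comparison, and a threshold of 0.05. The fit was tested on counts simulated from the SK-N-SH control libraries, for the SK-N-SH comparison only. A small part of the genes was changed there, and values were scaled to library totals. The deposited data have far more called genes and another scaling, so the simulation does not test the fit under those conditions. Correlations between libraries run across genes, which are not independent replicates. Named genes were the 10 members, TSPYL5 and MYCN as label checks, up to 3 genes per list and direction with the largest log2 difference past the threshold within a line (a selection is printed), and the 3 protein-coding genes most correlated with TUBB3, DCX and TUBB6. Members and lists were chosen with earlier results of these data known. Alternatives were another pseudocount, other filters, voom on recovered reads, scaling to library totals, fits of 2 groups, a replicate block, leaving out each library and, added after seeing the data, summing near-identical paralogs.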

Additional observations from a re-analysis of the deposited data

Results flagged for a closer look

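For each of the 10 genes the step from control to labelled knockdown libraries differed between the lines by a test of the difference itself (limma, second line minus SK-N-SH, log2 of FPKM + 1). The difference was -0.92 for TUBB3, -2.305 for TUBB2A, -4.35 for TUBB2B and -3.83 for TUBA1A among the neuronal tubulins, and 3.82 for TUBB6. Among microtubule-associated proteins it was -6.94 for DCX, -5.88 for MAP2, -4.31 for MAPT and 0.82 for MAP1B, and for GAP43 it was -6.03. Adjusted p-values ran from 1.09e-15 for DCX to 0.000306 for TUBB3. Of all genes tested, 41.8% were called positive and 43.1% negative for this difference, so such calls were common in the whole table. Within each line the groups did not overlap for any of the 10 genes, but the share of all genes without overlap was not counted. Calls within a line were common too, at 40.7% higher and 39.0% lower in SK-N-SH and 39.9% and 40.2% in the second line. The labels are in doubt in both lines: TSPYL5 goes against the label in the libraries labelled SK-N-SH shTSPYL5, and second line shTSPYL5 libraries had 0 MYCN reads and correlated at 0.692 to 0.721 with controls of their own line, against 0.960 to 0.975 with SK-N-SH controls. Whether labels were exchanged between groups was not tested.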

How the results depend on the processing

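Of 950 member values under alternatives, 921 kept direction and side of the threshold, including all 566 within a line or for the difference between lines. Counts of called genes stayed within 1.5 times the main count except for SK-N-SH shTSPYL5 over second line control: 854 genes, against 474 to 991 without 1 library in turn (510 and 474 without SK-N-SH shTSPYL5 replicates 1 and 2, and 515, 486 and 527 without second line control replicates 1, 2 and 3) and 671 to 987 under other settings. Signs turned only for values near 0. GAP43 in second line shTSPYL5 over SK-N-SH control was -0.057 (adjusted p = 0.610) when scaled to library totals and -0.034 to 0.114 without 1 library in turn (lowest without second line shTSPYL5 replicate 1), and TUBB6 in SK-N-SH shTSPYL5 over second line control was -0.067 to 0.0033 (highest without SK-N-SH shTSPYL5 replicate 1); the cause was not tested. Scaling to library totals shifted the median of all genes by -0.13 in the second line comparison and changed the split of second line shTSPYL5 over SK-N-SH control to 3083 higher and 3663 lower, against 4261 and 2735. With TUBB2A, TUBB2B and TUBB2BP1 summed, SK-N-SH shTSPYL5 over second line control gave -0.26 (adjusted p = 0.103). Replicate numbers did not pair libraries (correlations of same-numbered deviations -0.075 to 0.102); with the number as a replicate block 12569, 12619, 13393, 692 and 6752 genes were called in the 5 comparisons, and among members only the TUBB2A call in SK-N-SH shTSPYL5 over second line control was lost (adjusted p = 0.0842). Depth limits DCX and MAPT in the low groups, which rest on 0 to 141 reads.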
